A study of Bos taurus with 6 samples.

Results

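The genes described here are the cytosolic aminoacyl-tRNA synthetases and the transcription factor ATF4 with its target genes, 37 genes in all, of which 19 are synthetases and 18 are ATF4 and targets. They were found as the probe sets of a bovine microarray whose single annotated symbol was one of those 37. Of these, 32 genes had at least 1 such probe set, among 9155 genes in the whole table: 16 synthetases with 24 probe sets, and 16 of the ATF4 group with 29 probe sets. FARSA, FARSB, VARS1, ASNS and CTH were not analysed here. The rule matches symbols and uses no measured value, but the set was proposed with earlier results of these data known.

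RNA was taken from micromass cultures, in which articular chondrocytes from bovine metacarpal-phalangeal joints are plated at high density. The 3 untreated cultures received vehicle, and the 3 TGF-β cultures received TGF-β1 at 5 ng/ml over 8 hours, a step intended to find genes that this growth factor controls in articular cartilage. Arrays were numbered 1 to 3 within each group, and the deposited labels do not say what a number marks, although the study describes cultures from 3 separate cows, each grown with and without TGF-β. Each array is 1 replicate, and the array with a given number in one group was paired with the same number in the other.

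Aminoacyl-tRNA synthetases join each amino acid to its transfer RNA, the step that supplies the ribosome with its substrates. When uncharged transfer RNA or unfolded protein accumulates, kinases phosphorylate the initiation factor eIF2. General translation then slows while translation of ATF4 mRNA increases, and ATF4 switches on genes for amino acid synthesis, amino acid uptake and many of the synthetases themselves. Chondrocytes secrete large amounts of collagen, a protein rich in glycine and proline, and TGF-β is known to act on matrix production. In the study's own bovine cultures, a longer TGF-β treatment increased Alcian blue staining, its measure of proteoglycan content.

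All values are centred log2 signals: each probe set was set to a median of 0 over the 6 arrays before deposition, so a value states how an array differs from the others and not how abundant an mRNA is. Levels of different genes cannot be compared, and the chondrocyte identity of the cultures cannot be checked from marker levels. Both replicate 3 arrays stood apart from the other arrays, as described below, and on the replicate 2 array with TGF-β the spike-in controls (bacterial transcripts added to every sample) were bright, with a median of 1.53 over 18 probe sets against -0.17 to 0.06 on the other 5 arrays.

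No member of the set passed the test for a difference with TGF-β, which does not show that none changed. Of the 32 genes, 0 were higher and 0 were lower in limma's paired fit with an adjusted p threshold of 0.05, which 6.82% of all genes passed, 2.24% in the higher and 4.58% in the lower direction. At an unadjusted p under 0.05 the count was 4 of 32, all higher, against 22.5% of all genes. The untreated and TGF-β arrays overlapped in each of the 32 genes, so that 0 had separate groups, against 10.9% of all genes. Fits on the groups alone, without pairing, called 0 members and 0 of all genes, with 0 members and 535 genes at an unadjusted p under 0.05.

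The differences, TGF-β minus untreated, ran from -0.33 for PSAT1 to 0.41 for ALDH18A1, and 19 were above and 13 below 0. Their median was 0.02, beside -0.01 over all genes. The median size was 0.09 in the set and 0.12 over all genes. For all 32 members the 95% confidence interval of the difference lay within 1 log2 unit of 0, which is a 2-fold change, and for 26 it lay within 0.5 log2 units. Over all genes these counts were 8869 and 6886 of 9155. The intervals rest on the pairing: on the groups alone, 25 of the 32 lay within 1 log2 unit. In 8 members all 3 replicates were higher with TGF-β (25.0%, against 19.8% of all genes), and in 1, PHGDH, all 3 were lower (3.12%, against 24.4%).

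**Figure D1:**
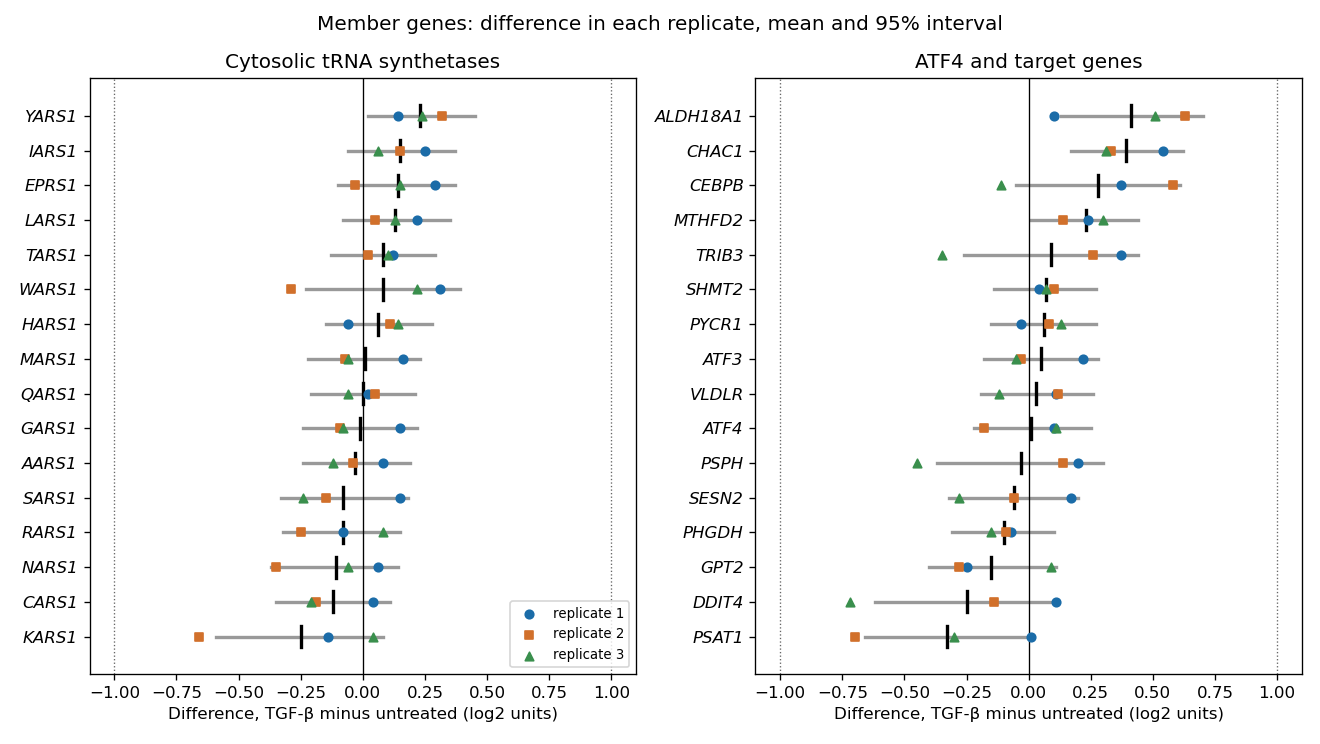
Difference between TGF-β and untreated arrays (log2 units, horizontal axis) for the 16 synthetases at the left and ATF4 with 15 target genes at the right. Symbols mark the 3 replicates, black bars their mean, grey lines the 95% confidence interval and dotted lines a 2-fold change; no interval reaches a 2-fold change, and most of them cross 0.

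Among the synthetases, 9 differences were above and 7 below 0, with a median of 0.00 and a range from -0.25 (KARS1, for lysine) to 0.23 (YARS1, for tyrosine). YARS1 had the smallest p among them. Its untreated arrays read 0.50, -0.95 and -0.12 in replicates 1 to 3, and its TGF-β arrays 0.64, -0.62 and 0.12. TGF-β was thus higher in each replicate, by 0.14, 0.32 and 0.24, but the replicates lay much farther apart than the groups. The mean difference of 0.23 had a SE of 0.0910 and an adjusted p of 0.190.

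IARS1, LARS1 and TARS1, for isoleucine, leucine and threonine, were also higher in every replicate, with mean differences of 0.15, 0.13 and 0.08. EPRS1, the bifunctional enzyme that charges both glutamate and proline, differed by 0.14 (95% interval -0.10 to 0.37, adjusted p 0.484). GARS1, which charges glycine, differed by -0.01 (95% interval -0.24 to 0.22, adjusted p 0.975). Glycine and proline are the residues that collagen uses most, and neither synthetase passed the test.

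KARS1 had the largest spread between replicates of the synthetases, with differences of -0.14, -0.66 and 0.04 (SD 0.363). Its untreated arrays read 0.07, 0.07 and -0.02, and its TGF-β arrays -0.07, -0.59 and 0.02. Only the TGF-β array of replicate 2, the one with bright spike-in controls, stood apart. The mean difference was -0.25 (SE 0.142, adjusted p 0.358) and -0.05 without replicate 2; the part that array quality has in this value was not tested.

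The remaining synthetases lay close to 0. HARS1, MARS1, QARS1 and AARS1 differed by 0.06, 0.01, 0.00 and -0.03. SARS1, RARS1, NARS1 and CARS1 differed by -0.08, -0.08, -0.11 and -0.12. These 8 charge histidine, methionine, glutamine, alanine, serine, arginine, asparagine and cysteine in that order, and their adjusted p-values ranged from 0.523 for CARS1 to 0.995 for QARS1.

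WARS1, which charges tryptophan, was the synthetase whose probe sets disagreed. Its mean over 4 probe sets differed by 0.08 (SE 0.133, adjusted p 0.783), but one probe set moved against the other three. That probe set read -0.35, -0.42 and -0.56 on the untreated arrays and 1.17, 0.35 and 1.39 on the TGF-β arrays. Every TGF-β array was above every untreated array, the difference was 1.41 (SE 0.194), and the adjusted p over the 24016 probe sets was 0.00489. At an adjusted p under 0.05, 5.90% of all probe sets passed. This was the only one of the 53 member probe sets to pass.

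The other three WARS1 probe sets had differences of -0.59, -0.26 and -0.24, with adjusted p-values of 0.0700, 0.244 and 0.361. The first of these read 0.53, 0.74 and -0.42 untreated and 0.32, -0.32 and -0.91 with TGF-β, so that it was lower in each replicate while the groups overlapped. The array annotation assigns the rising probe set to WARS1, whereas the study's own gene list names it APC. Which transcript it detects was not tested. Without it the WARS1 difference was -0.36 (adjusted p 0.136), and as the median of its probe sets it was -0.19. The direction for WARS1 therefore depends on 1 probe set whose 2 names differ.

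**Figure D2:**
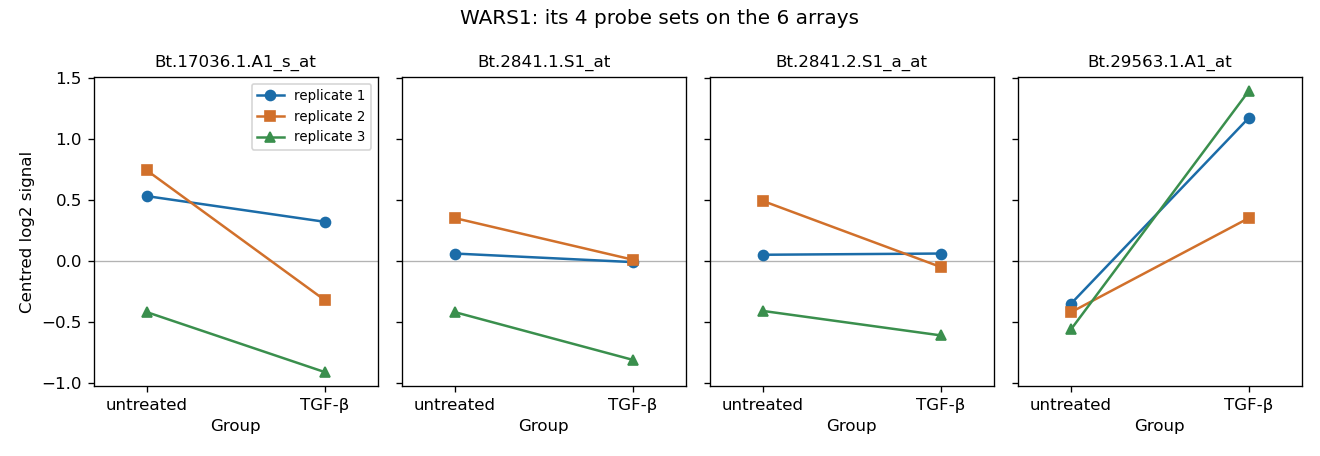
Centred log2 signal (vertical axis) of the 4 probe sets annotated to WARS1 on the untreated and TGF-β arrays, with lines joining the arrays of 1 replicate. The probe set at the right rises in each replicate, to 1.17, 0.35 and 1.39, while the other three are mostly lower with TGF-β.

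ATF4 mRNA did not differ detectably. The untreated arrays read 0.03, 0.14 and -0.29, and the TGF-β arrays 0.14, -0.03 and -0.17. The replicate differences of 0.10, -0.18 and 0.11 did not share a sign, and their mean was 0.01 (SE 0.100, 95% interval -0.22 to 0.25, adjusted p 0.957). ATF4 is controlled largely at translation, which an mRNA array does not measure.

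The set also holds a pair of other transcription factors of the response. ATF3, a stress-induced repressor and activator, differed by 0.05 (adjusted p 0.820). CEBPB, which can pair with ATF4, differed by 0.37, 0.58 and -0.11 in the 3 replicates, a mean of 0.28 (SE 0.140, adjusted p 0.298). The mean was 0.13 without replicate 2 and 0.48 without replicate 3 (adjusted p 0.706 and 0.0889). Its highest array was the TGF-β array of replicate 2, at 0.93.

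The serine and one-carbon enzymes did not move together. PHGDH, PSAT1 and PSPH carry out the successive steps from a glycolytic intermediate to serine, and they differed by -0.10, -0.33 and -0.03. PSAT1 had the most negative mean of the set, with untreated arrays at 0.32, 0.35 and -0.49 and TGF-β arrays at 0.33, -0.35 and -0.79. Replicate 1 showed no gap, replicate 3 a gap of -0.30 and replicate 2 a gap of -0.70, and the mean of -0.33 had an adjusted p of 0.222. Without replicate 2 it was -0.15. Its 3 probe sets also disagreed, with differences of 0.00, -0.41 and -0.58, none of which passed the test.

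SHMT2 and MTHFD2 take serine carbon into the mitochondrial folate pathway. SHMT2 differed by 0.07 (adjusted p 0.701). MTHFD2 was higher in each replicate, with untreated arrays at 0.04, 0.04 and -0.76 and TGF-β arrays at 0.28, 0.18 and -0.45. The replicate differences of 0.24, 0.14 and 0.30 averaged 0.23 (SE 0.0903, adjusted p 0.198), and its 4 probe sets all lay above 0, between 0.11 and 0.40.

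The largest positive difference belonged to ALDH18A1, the enzyme that makes the first intermediate of proline synthesis from glutamate. It read -0.64, -0.14 and 0.14 untreated and -0.54, 0.49 and 0.65 with TGF-β. Replicates 2 and 3 differed by 0.63 and 0.51 and replicate 1 by 0.10. The mean of 0.41, a fold of 1.33, had a SE of 0.121, a 95% interval from 0.13 to 0.70 and an adjusted p of 0.0980. PYCR1, which completes proline, differed by 0.06 (95% interval -0.15 to 0.27, adjusted p 0.751), and GPT2, the mitochondrial alanine transaminase, by -0.15 (adjusted p 0.487).

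CHAC1, which degrades glutathione, came closest to the threshold. It read -0.25, 0.25 and -0.82 on the untreated arrays and 0.29, 0.57 and -0.50 on the TGF-β arrays. All 3 replicates were higher with TGF-β, by 0.54, 0.33 and 0.31, and the mean was 0.39 (a fold of 1.31, SE 0.0949, 95% interval 0.17 to 0.62, adjusted p 0.0574). Both of its probe sets lay near that value, at 0.37 and 0.41. Over the 8 alternatives that kept the pairing, its difference ranged from 0.32 to 0.43 and its adjusted p from 0.0576 to 0.269, and on the groups alone the adjusted p was 0.999.

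Among the genes that damp the stress response or growth, DDIT4 and TRIB3 had the widest scatter of the set. DDIT4, an inhibitor of the growth kinase complex mTORC1, had a SD of 0.425 between replicates, with differences of 0.11, -0.14 and -0.72. Its untreated arrays read -0.16, 0.08 and 0.77 and its TGF-β arrays -0.05, -0.05 and 0.05, so that 1 array, untreated replicate 3, set the mean of -0.25 (adjusted p 0.418). Without replicate 3 the difference was -0.01.

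TRIB3, a pseudokinase that restrains ATF4, was higher with TGF-β in replicates 1 and 2 and lower in replicate 3, by 0.37, 0.26 and -0.35 (SD 0.387). The arrays read -0.14, 0.14 and -0.77 untreated and 0.23, 0.40 and -1.12 with TGF-β, and the mean was 0.09 (adjusted p 0.774). SESN2, which senses leucine for mTORC1, differed by -0.06 (adjusted p 0.818). VLDLR, a lipoprotein receptor, differed by 0.03 (adjusted p 0.874). Its 4 probe sets disagreed, with differences of 0.27, 0.07, 0.08 and -0.27, none of which passed the test.

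The cultures also differed by number. Replicate means were taken over the untreated and the TGF-β array of each number. For 31 of the 32 members the range of the 3 replicate means was larger than the TGF-β difference, as it was for 84.3% of all genes. A range over 3 means tends to exceed a single difference, so this count does not rank number against treatment. The median range of the replicate means was 0.56 in the set and 0.35 over all genes.

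Most of the set was low in replicate 3. In 20 of 32 members replicate 3 lay below both other replicates in the untreated group and again in the TGF-β group, which was the case for 62.5% of the set and 23.2% of all genes. The count was 9 of 16 among the synthetases and 11 of 16 in the ATF4 group. In 7 members replicate 3 was instead above both others in each group, 21.9% against 28.7% of all genes. No test was made of this pattern, since a single culture number carries it.

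Measured as replicate 3 minus the mean of replicates 1 and 2, the median of the set was -0.23 in the untreated group and -0.33 in the TGF-β group, and that of all genes was 0.01 in both. SESN2 was lowest in the untreated group, at -0.88 and -1.21 with TGF-β, and TRIB3 was lowest with TGF-β, at -0.77 and -1.43. CHAC1 (-0.82 and -0.94), PSAT1 (-0.82 and -0.77), MTHFD2 (-0.80 and -0.68), PYCR1 (-0.77 and -0.67) and GARS1 (-0.72 and -0.84) lay nearby. The 7 that were above both other replicates were DDIT4 at 0.81 and 0.10, ALDH18A1 at 0.53 and 0.68, RARS1 at 0.43 and 0.67, LARS1 at 0.41 and 0.39, EPRS1 at 0.39 and 0.40, SHMT2 at 0.27 in both and HARS1 at 0.24 and 0.36.

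A list of 28 further ATF4 targets, most of them amino acid transporters, stress factors and metabolic enzymes, had the same lean in replicate 3. Of its 21 measured genes, 16 (76.2%) were below both other replicates in each group, with medians of -0.62 and -0.79. NUPR1, a small stress-induced chromatin protein, was lowest in the TGF-β group, at -1.63 and -1.97, and SLC7A5, the large neutral amino acid transporter, lay at -1.25 and -1.16. Beside the 23.2% of all genes, 7 of the 14 other enzymes of amino acid metabolism (50.0%), 4 of the 13 endoplasmic reticulum folding genes (30.8%) and 0 of the 13 measured eIF2 kinases and initiation factors were low in both groups. Of the eIF2 genes, 7 of 13 (53.8%, against 28.7% of all genes) were instead above both other replicates in each group. Among 15 mitochondrial synthetases, 5 were low in both groups (33.3%) and 5 above both others in each. These counts were 4 and 3 of 11 one-carbon enzymes, 2 and 3 of 13 mTORC1 amino acid sensing genes, and 1 and 1 of 4 synthetase complex partners and tRNA export genes. Some lists share genes. CBS, XPOT and ALDH1L2 (each low in both groups), HERPUD1 and MTHFD1L are also further ATF4 targets. DNAJC3 is a folding and an eIF2 gene, and TYMS (above both others in each group) is a one-carbon and a cell cycle gene.

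Other features of replicate 3 moved with this. The median of 25 measured cell cycle genes was higher in replicate 3 by 2.44 untreated and 2.29 with TGF-β, and 24 of the 25 were above both other replicates in each group. The median of 10 measured chondrocyte markers lay at -0.64 and -0.54, with 6 of 10 low in both groups. The median of 11 fibroblast markers lay at -0.40 and -0.15, that of 8 endothelial markers at 0.04 and 0.05, and that of 9 macrophage and blood markers at -0.08 in both. Of the 11 fibroblast markers, 3 were low in both groups. COL1A2 (0.86 and 0.89), COL3A1 (0.60 and 0.93) and DCN (0.19 in both) lay above 0. Replicate 1 stood apart in some markers: COL1A2 read -1.44 there untreated and -2.23 with TGF-β, and the macrophage marker CD68 1.38 and 1.47. Replicate 2 was highest in the chondrocyte and fibroblast medians. In replicates 1 to 3 the chondrocyte median read -0.01, 0.45 and -0.26 untreated and -0.20, 0.55 and -0.37 with TGF-β. That of the fibroblast markers read -0.062, 0.345 and -0.116 untreated and -0.124, 0.253 and -0.066 with TGF-β. The replicate 3 differences of these 2 lists thus also carry the high values of replicate 2. By the same replicate 3 difference, the median of 5 osteoblast markers lay at -0.24 and -0.20, with 4 of 5 low in both groups. The median of 7 muscle and adipose markers lay at 0.06 and -0.17, but among them FABP4, a fatty acid binding protein of adipocytes and other cells, was higher in replicate 3 by 4.85 and 3.48. Their part in the result was not tested, and in RNA from a whole culture fewer cells of a type and less RNA per cell cannot be told apart. With TGF-β, 1 of the 10 chondrocyte markers rose (COMP) and 2 fell (COL11A1 and CNMD), 1 of the 11 fibroblast markers fell (COL1A2), 1 of the 5 osteoblast markers fell (IBSP, by 1.12, adjusted p 0.00237), and no endothelial, macrophage and blood, muscle and adipose or cell cycle gene passed the test. Of these 5 genes, IBSP alone passed with each replicate left out in turn. Over single probe sets, 1 for IBSP fell farther (-2.17, adjusted p 0.000112), so its mean of -1.12 joins unlike probe sets. Also over single probe sets, 1 for FABP4 was lower (-0.92, adjusted p 0.0171). Left out, replicate 3 did not alter the count of 0 members called.

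**Figure D3:**
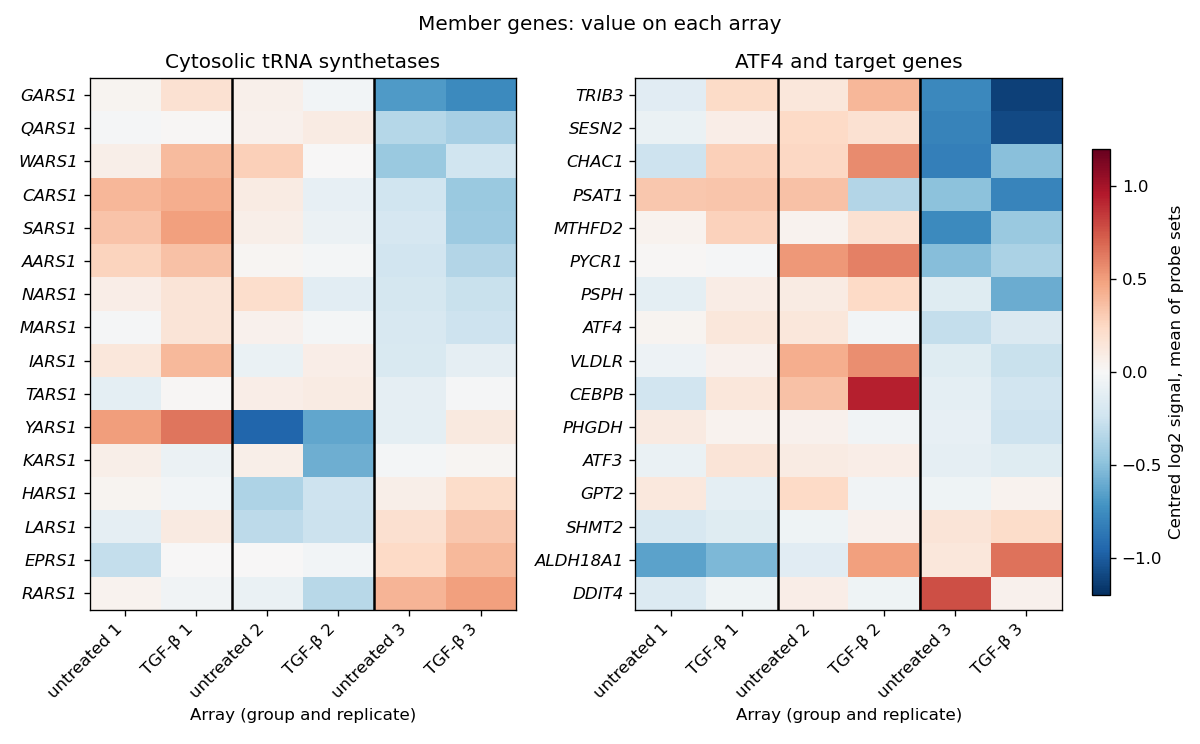
Centred log2 signal (colour) of the 32 members on the 6 arrays, with untreated and TGF-β arrays of each replicate side by side and genes ordered by their replicate 3 values. The arrays of 1 replicate resemble each other, and blue prevails in the replicate 3 columns, where 20 of the 32 genes were below both other replicates in both groups.

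Few genes of the surrounding pathway passed the test, and lists of this size are too short to set their counts apart from the 6.82% of all genes that passed. None of the 15 measured mitochondrial synthetases passed the test (median -0.06), nor did the 4 measured synthetase complex partners and tRNA export genes (median 0.06), the 13 eIF2 kinases and factors (median 0.00), the 11 further one-carbon enzymes (median 0.04) or the 13 genes of endoplasmic reticulum folding (median 0.04).

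Of the 21 further ATF4 targets, 1 rose, 1 fell and 19 did not pass, with a median of 0.02. VEGFA, the angiogenic growth factor and also a target of other pathways, rose by 1.24 (adjusted p 0.00465). ATF5, a transcription factor related to ATF4, fell: it read 0.08, 0.82 and 0.31 untreated and -0.38, -0.08 and -0.35 with TGF-β, and every TGF-β array was below every untreated array. Its difference was -0.68 (SE 0.110, adjusted p 0.0172), and without replicate 2 it was -0.56 with an adjusted p of 0.0788. DDIT3, the pro-apoptotic factor of the same branch, differed by -0.12 (adjusted p 0.548).

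**Figure D4:**
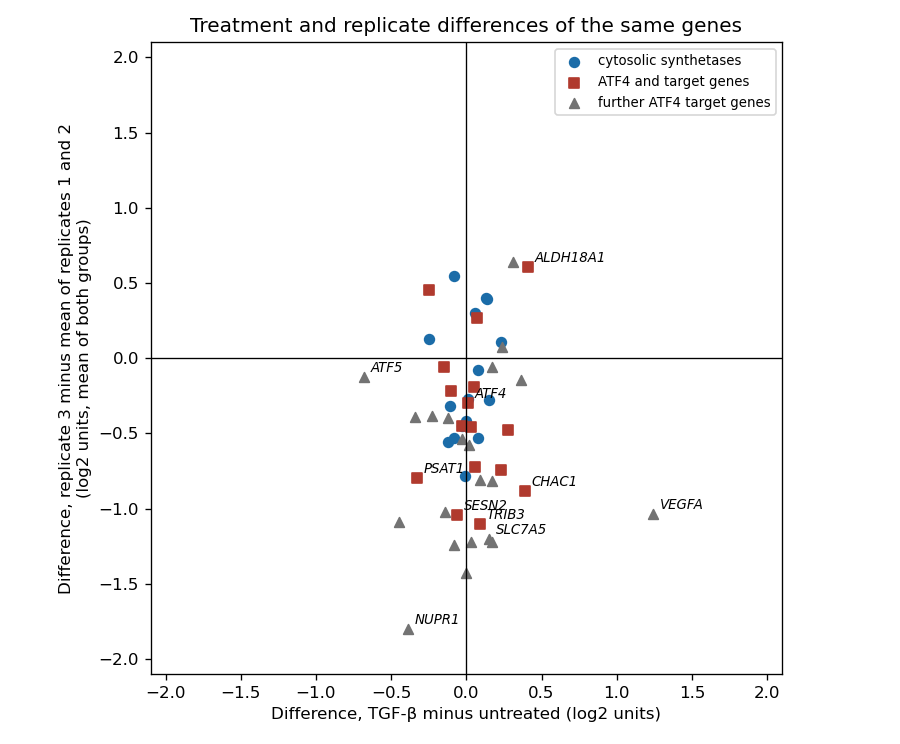
Difference with TGF-β (horizontal axis, log2 units) against the difference of replicate 3 from the mean of replicates 1 and 2, averaged over both groups (vertical axis, log2 units), for the 32 members and 21 further ATF4 targets. Most points spread downward near the vertical line at 0, and VEGFA at 1.24 and ATF5 at -0.68 lie farthest to the sides.

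Of 14 other enzymes of amino acid metabolism 1 fell, GLUD1, which interconverts glutamate and 2-oxoglutarate (-0.45, adjusted p 0.0297). Its 2 probe sets differed by -0.15 and -0.74, and without any one replicate its adjusted p was 0.101 to 0.121. Of the 13 measured genes of amino acid sensing by mTORC1, 0 rose and 2 fell, with a list median of -0.13. RRAGD, a Rag GTPase that carries the amino acid signal to mTORC1, read 0.17, -0.17 and 0.87 untreated and -0.53, -0.91 and 0.32 with TGF-β, lower in each replicate by 0.70, 0.74 and 0.55 (mean -0.66, SE 0.0917, adjusted p 0.0103). NPRL2, a subunit of the complex that holds the Rag GTPases inactive, differed by -0.41 (adjusted p 0.0479, and 0.0645 over single probe sets). Without replicate 2 the adjusted p of RRAGD was 0.0584, and NPRL2 did not pass without any one replicate.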

How the data were processed

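RNA from the 6 cultures was amplified in 2 cycles, labelled and hybridised to Affymetrix Bovine Genome arrays. The authors made the deposited log2 values in GeneSpring with Robust Multichip Average, and each probe set is centred on its median (largest absolute median 5e-07), so no filter on dim probe sets was possible; versions are not given in the sources used here. Of 24128 probe sets, 112 controls were left out; 13292 of the other 24016 had 1 symbol in the array annotation (13263 updated through Entrez IDs to RefSeq symbols), 86 several and 10638 none. Probe sets were averaged per gene. No 2 arrays were copies (at most 56 identical values in 15 pairs).

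Differences were tested 2-sided over all 9155 genes with limma 3.58.1 in R 4.3.3 (lmFit and eBayes, replicate number as a block, Benjamini-Hochberg threshold 0.05; prior SD 0.125, prior df 4.98, residual df 2). Scripts were tested on simulated data. The study's own test was unpaired. Equal numbers were treated as pairs by a rule set beforehand and on the study's description of its cows. Deviations from group means of same-numbered arrays correlated at 0.694 to 0.845, other pairs at -0.683 to 0.185. Deviations sum to 0 within a group, so high correlations of same numbers lower those of other pairs. Alternatives were no block, the methods' unequal-variance test, further quantile normalization, medians set to 0, the median of probe sets, single probe sets, 4 differently named probe sets left out, and each replicate left out. Precision is limited by 3 arrays per group.

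Members and lists were chosen with earlier results of these data known. Values on every array were due to members past the threshold, ATF4 and the 3 members of largest spread, list genes past the threshold were named (at most 4 per direction), and probe sets were given where they differed by over 0.5. YARS1, PSAT1, MTHFD2, ALDH18A1, CHAC1, DDIT3, NUPR1, SLC7A5 and the markers named were given in more detail, or named, after their values were seen. Figures were drawn with matplotlib 3.10.9. Promoters were not searched and no sequence is shown.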

Additional observations from a re-analysis of the deposited data

How the results depend on the processing

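The counts of 0 members higher and 0 lower held under every alternative except single probe sets, where 1 member and so 1 synthetase, WARS1, was higher. Without the replicate block 0 members and 0 of 9155 genes were called, as by the methods' unequal-variance test; over all genes, 205 higher and 419 lower became 127 and 196 after quantile normalization, 115 and 205 without replicate 1, 90 and 112 without replicate 2 and 161 and 270 without replicate 3. Members that changed sign were not called on either side. These were, after quantile normalization, GARS1 (0.01), QARS1 (-0.003), ATF4 (-0.003) and PSPH (0.003); with array medians at 0, MARS1 (-0.002) and QARS1 (-0.01); with the median of probe sets, WARS1 (-0.19); and without the differently named probe sets, WARS1 (-0.36). With each replicate left out, values ran from -0.08 to 0.02 for AARS1, -0.09 to 0.03 for GARS1, -0.07 to 0.05 for MARS1, -0.20 to 0.001 for NARS1, -0.02 to 0.03 for QARS1, -0.19 to 0.004 for SARS1, -0.04 to 0.27 for WARS1, -0.04 to 0.11 for ATF4, -0.04 to 0.10 for ATF3, -0.15 to 0.17 for PSPH, -0.05 to 0.31 for TRIB3, -0.17 to 0.05 for SESN2 and -0.01 to 0.11 for VLDLR. After quantile normalization GLUD1 (adjusted p 0.0561), RRAGD (0.0535) and NPRL2 (0.143) did not pass. The cause of these changes was not tested. Without scanner files, signal over background is unknown.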
